A study of Mus musculus with 16 samples.

Results

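Alox12, Wfdc18 and Pnliprp1 are 3 of the 16593 genes named by probes of the array, and they were chosen by their measured rise, among the largest in Apcmin colon tumours over wt colon mucosa. They are read by 4 probes: 2 for Alox12 and 1 each for Wfdc18 and Pnliprp1. Of the 11230 genes tested, the 3 held places 4 to 6 when ranked by that rise, between Mmp10 at place 3, with a log2 difference of 6.22, and Notum at place 7, with 5.41. Because that pair of groups chose the genes, every value that rests on it is given as a description, with no test.

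Alox12 encodes a lipoxygenase, best known from platelets, that adds oxygen to arachidonic acid, the membrane fatty acid from which prostaglandins and leukotrienes are also made. Wfdc18 encodes a small secreted protein with a whey acidic protein (WAP) domain, the fold shared by a family of protease inhibitors such as Slpi, and it has been studied mostly in the mouse mammary gland. Pnliprp1 encodes a relative of pancreatic lipase, known as a secreted product of the acinar cells of the pancreas and with little activity of its own against triglycerides. The 3 genes belong to different pathways, and none of them is a textbook marker of the colon.

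The data are Illumina mouse bead arrays, each of RNA from a single sample of snap-frozen mucosa or tumour from mice of the mixed background B6/129/Balbc/CD1. All mice, controls included, received doxycycline from 6 to 7 weeks of age, the agent that switches on iLIN28B, an inducible transgene for the RNA-binding protein LIN28B, which blocks the maturation of let-7 microRNAs. Apcmin/+ mice carry 1 truncated copy of Apc, the brake on Wnt signalling, and form intestinal adenomas. The promoter that drives iLIN28B is not given in the sources used here. In the colon, 2 samples of wt mucosa were set beside 2 Apcmin/+ adenomas and 3 adenomas of iLIN28B; Apcmin/+ mice, called LIN28B/Apcmin here, all at 3 months. In the small intestine, 1 sample of wt mucosa, 2 Apcmin/+ adenomas and 2 LIN28B/Apcmin adenomas were taken at 3 months, and 2 iLIN28B tumours, labelled adenoma or adenocarcinoma, at 8 months. All 3 LIN28B/Apcmin colon arrays share the number that opens their titles, as do both LIN28B small intestinal arrays, and the wt small intestinal array shares one with wt colon replicate 2, so these may each come from 1 animal. LIN28B/Apcmin small intestinal replicate 2 is titled "Tum Muc" where its partner is titled "Tum", and LIN28B small intestinal replicate 2 is titled "Jej" where all others from this organ are titled "D".

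On the 14 arrays used, 48.3% to 56.5% of probes were detected, meaning brighter than the negative control beads at a detection p under 0.05. The other 2 arrays, replicate 4 of LIN28B/Apcmin in the colon and replicate 1 of wt in the small intestine, had 12% and 5.28% detected and were left out, as the rule for these genes asks, which leaves wt small intestine with no replicate. Small intestinal enterocyte genes summed to between 17028 and 70434 on the small intestinal arrays and to between 458 and 1545 on the colon arrays, in normalised intensity over 10 genes. Genes of mature colonocytes summed to between 32703 and 34481 in wt colon and to between 401 and 2217 in the colon tumours, again over 10 genes. The defining colonocyte gene Slc26a3, an anion exchanger, was dim throughout. It was detected on both wt colon arrays, at 72.4 and 80.9, and on no other, with signals of 46.1 to 61.2 there. No probe for LIN28B was analysed here, so that label could not be checked. In tissue samples, fewer cells of a type and less RNA per cell cannot be told apart.

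The 3 genes lie on 2 chromosomes. On GRCm38.p6, Alox12 spans chr11:70241457-70255380 on the minus strand, Wfdc18 chr11:83709004-83711360 on the plus strand and Pnliprp1 chr19:58728887-58744169 on the plus strand. Because the genes were brought together by how they moved, the 250 bases before the transcript start used by RefSeq are shown for each, 5′ to 3′ on the strand of the gene. Capitals mark matches to the motifs searched, which were found in the windows of Alox12 and Wfdc18.
Alox12: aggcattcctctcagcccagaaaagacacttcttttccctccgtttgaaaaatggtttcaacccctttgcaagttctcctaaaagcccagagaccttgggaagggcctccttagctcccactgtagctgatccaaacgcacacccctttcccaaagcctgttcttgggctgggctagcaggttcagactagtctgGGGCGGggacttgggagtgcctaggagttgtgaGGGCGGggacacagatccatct
Wfdc18: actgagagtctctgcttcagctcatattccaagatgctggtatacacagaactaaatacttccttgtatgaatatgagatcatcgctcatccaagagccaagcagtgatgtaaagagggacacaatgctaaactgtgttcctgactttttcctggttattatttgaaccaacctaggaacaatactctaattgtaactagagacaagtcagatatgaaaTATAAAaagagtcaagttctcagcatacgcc
Pnliprp1: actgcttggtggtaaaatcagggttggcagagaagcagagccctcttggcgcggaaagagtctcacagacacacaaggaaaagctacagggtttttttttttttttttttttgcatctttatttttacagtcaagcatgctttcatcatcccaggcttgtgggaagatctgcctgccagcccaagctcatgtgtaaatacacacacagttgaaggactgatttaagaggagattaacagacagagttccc
These windows are chr11:70255371-70255620, chr11:83708754-83709003 and chr19:58728637-58728886, and the Alox12 start lies just inside the outer end of that gene. They differ in base composition, with 54% G and C for Alox12, 38.4% for Wfdc18 and 43.6% for Pnliprp1, against a median of 52.4% over 32851 promoters. Alox12 held 2 GC boxes (GGGCGG), with first bases 55 and 22 before the start, a motif found in 32.7% of promoters. Wfdc18 held a TATA box (TATAAA) 31 bases before the start, found in 12.4% of promoters. Neither the TCF/LEF motif CTTTGA, nor the AP-1 motif TGANTCA, nor the STAT motif TTCNNNGAA was in any of the 3 windows on either strand. Those motifs were in 13.8%, 6.75% and 7.02% of promoters.

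Alox12 was detected but dim in every normal sample and in every small intestinal tumour, and bright in the colon tumours. Its main probe, ILMN_2613908, gave signals of 114.9 and 82.5 in wt colon and of 3744.1 and 2521.4 in Apcmin colon tumours. In LIN28B/Apcmin colon tumours it gave 544.2, 2139.8 and 1641.8. All 5 colon tumours lay above all other arrays, and replicate 1 of the LIN28B/Apcmin tumours was the lowest of the 5.
In the small intestine the signals were 98.7 in wt mucosa, 124.1 and 113.6 in LIN28B tumours, 103.7 and 79.4 in Apcmin tumours, and 140.4 and 100.5 in LIN28B/Apcmin tumours. These 7 values overlapped between groups and with wt colon, and the probe was detected on every one of the 14 arrays.
On the normalised log2 scale, Alox12 stood 5.76 ± 0.66 (SE) higher in Apcmin colon tumours than in wt colon, a 54.2-fold difference, and 4.93 ± 0.59 higher in LIN28B/Apcmin colon tumours, which is 30.5-fold. Both comparisons share the wt colon arrays. LIN28B/Apcmin differed from Apcmin in the colon by -0.83 ± 0.59, and without LIN28B/Apcmin colon replicate 1 the sign turned, to 0.04.
A second Alox12 probe, ILMN_2827535, spanned less. It gave 50.1 and 52.3 in wt colon, 91.7 and 75.7 in Apcmin colon tumours, and 54.5, 63.8 and 61.6 in LIN28B/Apcmin colon tumours. Across the 7 small intestinal arrays it gave between 50.1 and 53.2. It was detected on both Apcmin colon arrays, on 2 of the 3 LIN28B/Apcmin colon arrays and on no other, so only a lower bound holds, of at least 1.33-fold for Apcmin and at least 1.14-fold for LIN28B/Apcmin colon tumours over wt colon. The probes differ in which array was highest on the normalised log2 scale: Apcmin colon replicate 1 at 11.54 for the main probe, and LIN28B/Apcmin colon replicate 3 at 5.34 for the second. Only the main probe entered the tests.

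**Figure D1:**
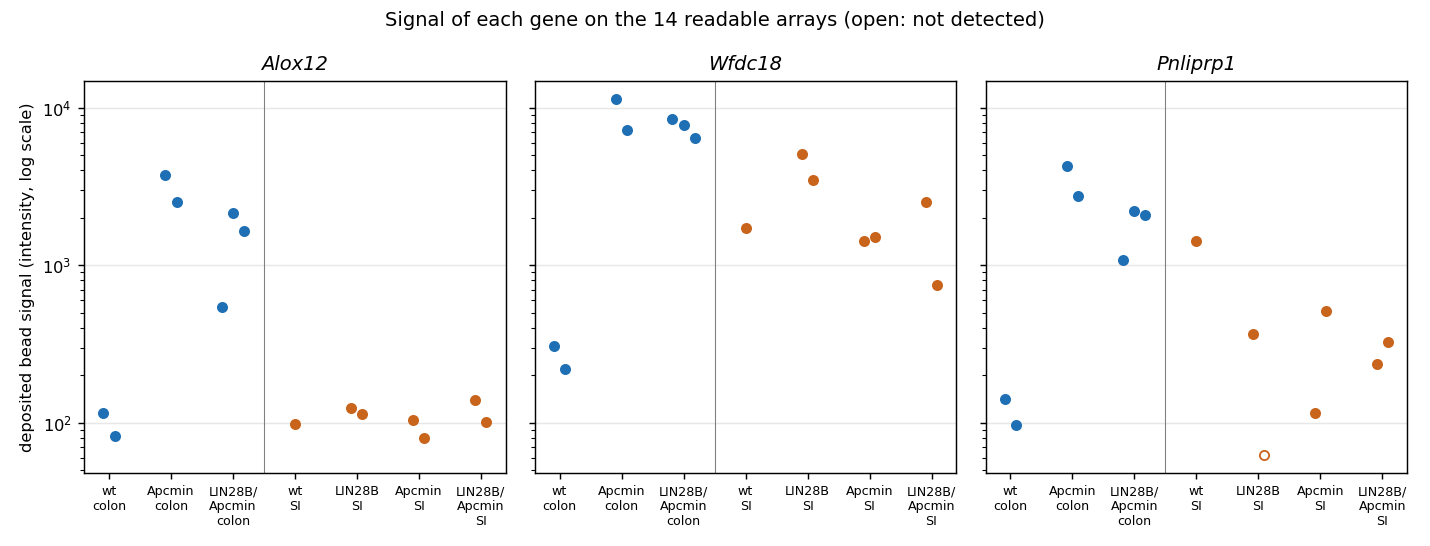
Deposited bead signal (intensity, log axis) of the main probe of Alox12, Wfdc18 and Pnliprp1, 1 point per array, in the colon groups (blue) and small intestinal (SI) groups (orange), with open points where the probe was not detected. Alox12 is high in the 5 colon tumours alone, whereas Wfdc18 and Pnliprp1 also reach 1729.9 and 1430.6 in wt small intestine.

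Wfdc18 was high in the colon tumours and, unlike Alox12, also well above its wt colon level throughout the small intestine. Its probe, ILMN_1239717, gave 307.4 and 220.6 in wt colon, 11395.3 and 7176.1 in Apcmin colon tumours, and 8505.3, 7806.9 and 6469.6 in LIN28B/Apcmin colon tumours. The groups of colon tumours overlapped each other and lay above every other array.
In the small intestine it gave 1729.9 in wt mucosa, 5112.5 and 3455.9 in LIN28B tumours, 1415.7 and 1509.8 in Apcmin tumours, and 2526.6 and 754.5 in LIN28B/Apcmin tumours. The LIN28B tumours were the brightest of these, and wt colon lay below all of them.
Against wt colon the log2 difference was 5.48 ± 0.40 in Apcmin and 5.77 ± 0.36 in LIN28B/Apcmin colon tumours, 44.6-fold and 54.6-fold. LIN28B/Apcmin lay 0.29 ± 0.36 above Apcmin in the colon. Between the normal tissues, wt colon lay 3.05 below the lone wt small intestinal array.

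Pnliprp1 was low in wt colon, high in colon tumours and uneven in the small intestine. Its probe, ILMN_1225909, gave 141.7 and 97.2 in wt colon, 4294.3 and 2747.9 in Apcmin colon tumours, and 1073.1, 2194.8 and 2090.9 in LIN28B/Apcmin colon tumours. All 5 colon tumours lay above wt colon, with LIN28B/Apcmin replicate 1 again the lowest of them.
In the small intestine it gave 1430.6 in wt mucosa, 364.4 and 62.5 in LIN28B tumours, 115 and 509.4 in Apcmin tumours, and 235.8 and 323.4 in LIN28B/Apcmin tumours. The signal of 62.5, in LIN28B replicate 2, the one titled Jej, was not above background. The wt array was thus brighter than all 6 small intestinal tumours and brighter than 1 of the colon tumours.
The log2 difference from wt colon was 5.51 ± 1.08 in Apcmin colon tumours, which is 45.7-fold, and LIN28B/Apcmin colon tumours lay 32-fold above wt colon, with an SE of 0.96 on the log2 scale. The difference between LIN28B/Apcmin and Apcmin in the colon was -0.51 ± 0.96, and without LIN28B/Apcmin colon replicate 1 its sign turned, to 0.07. Its standard errors were the largest of the 3 genes, and its arrays differed by an SD of 2.46 among LIN28B and 2.04 among Apcmin small intestinal tumours, on the log2 scale.

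Ordered by their mean level, the groups ran alike for the 3 genes only at the ends. Apcmin or LIN28B/Apcmin colon tumours held the top places and wt colon the last place for each gene. For Alox12, with means of 11.33 and 10.50, the groups of colon tumours overlapped, and the next group, LIN28B/Apcmin small intestinal tumours at 6.66, was separated from them by 1.97 between the nearest arrays. The remaining Alox12 means ran from 6.26 to 5.57, with gaps of at most 0.08 between the nearest arrays of neighbours below LIN28B small intestinal tumours. For Wfdc18, LIN28B small intestinal tumours (11.85) came next and overlapped neither neighbour, and Apcmin tumours, LIN28B/Apcmin tumours and wt mucosa of the small intestine, at 10.68, 10.61 and 10.57, overlapped. For Pnliprp1, wt small intestine (10.28) came next and lay within the range of LIN28B/Apcmin colon tumours, and the 4 groups below it, from 8.20 to 5.98, overlapped from one to the next.

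The tested comparison that bears on the colon set LIN28B/Apcmin tumours of the colon (n = 3) against those of the small intestine (n = 2). Its group means did not use the choosing groups, but its SE and p-values rest on a spread estimated over all 7 groups. Alox12 and Wfdc18 rose in the colon tumours, and Pnliprp1 did not pass the test. Alox12 was 14.3-fold higher, a log2 difference of 3.84 ± 0.59 with a 95% interval of 2.54 to 5.13 (limma, adjusted p = 0.00159), and all 3 colon tumours lay above both small intestinal ones. Wfdc18 was 6.40-fold higher, at 2.68 ± 0.36 with an interval of 1.89 to 3.46 (limma, adjusted p = 0.000696), again with no overlap. Pnliprp1 differed by 2.78 ± 0.96, which is 6.89-fold with an interval of 0.67 to 4.90 (limma, adjusted p = 0.0691), and its groups did not overlap either. Of all genes tested, 9.47% were called higher in the colon tumours, 8.5% lower and 18% in either direction, against 2 of these 3 genes higher. Higher genes made up 52.7% of all calls, and 39.9% with median scaling or 41.1% in the series matrix in place of quantile normalisation.
By size of the rise, Alox12 held place 22, Pnliprp1 place 65 and Wfdc18 place 71 of 11230. The calls for Alox12 and Wfdc18 held when any 1 of the 14 arrays was left out, whereas Pnliprp1 moved between an adjusted p of 0.0185 and 0.202 (limma). The groups stand for few animals: all 3 colon arrays share 1 title number and may come from 1 animal. The p-values do not measure spread between animals there. The colon tumours also carry the same Apcmin allele as the groups by which the genes were chosen.

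**Figure D2:**
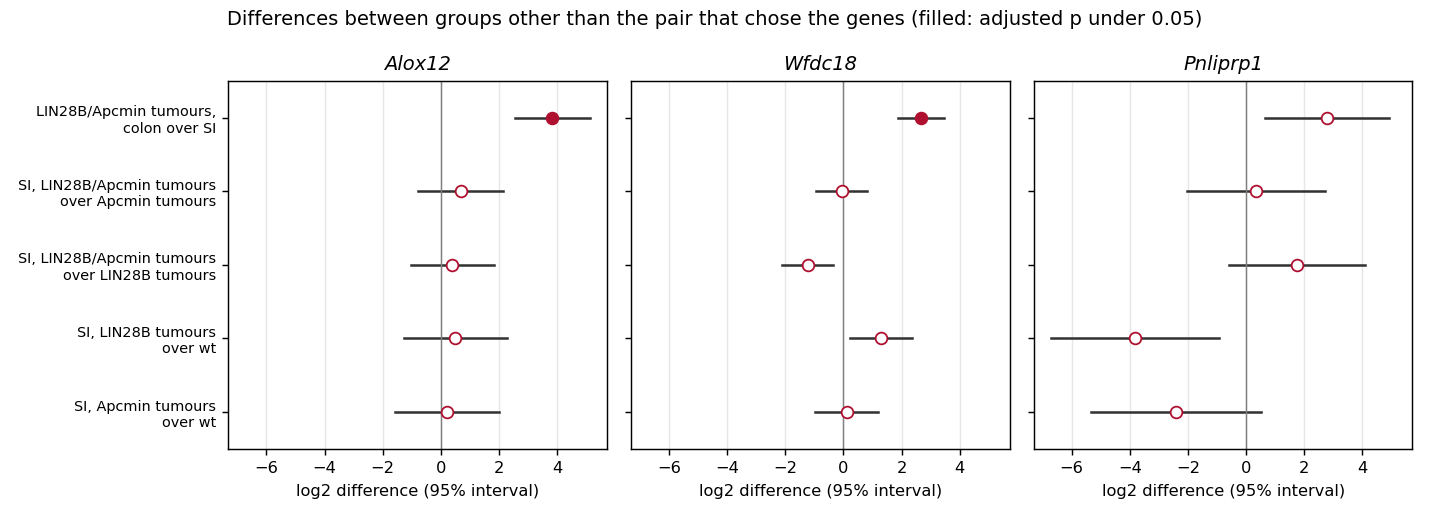
Log2 difference (point) with its 95% interval (line) of Alox12, Wfdc18 and Pnliprp1 in the 5 comparisons tested, with filled points where the adjusted p was under 0.05. Only Alox12 and Wfdc18 in LIN28B/Apcmin tumours, colon over small intestine (SI), are filled, at 3.84 and 2.68.

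Within the small intestine, no test of these genes passed the threshold: the 4 comparisons gave 12 tests, and limma called 0 of the 12, of which 3 had an unadjusted p under 0.05. In Apcmin tumours over wt mucosa, where 0.089% of all genes were called, Alox12 differed by 0.20 ± 0.81, Wfdc18 by 0.11 ± 0.49 and Pnliprp1 by -2.42 ± 1.32, each with an adjusted p of 1.00 (limma). The intervals were wide, from -1.58 to 1.99 for Alox12, from -0.97 to 1.20 for Wfdc18 and from -5.33 to 0.50 for Pnliprp1. Because wt mucosa of this organ has no replicate, the SE and p-values over it rest on the spread within the other groups, the choosing colon groups included. Whether the change differed between organs was not tested, since the colon pair chose the genes.
For LIN28B tumours over wt mucosa, where 3.73% of genes were called, Alox12 differed by 0.50 ± 0.80 (limma, adjusted p = 0.782). Wfdc18 lay 1.29 ± 0.49 higher, with both tumours above the wt array (limma, adjusted p = 0.154). Pnliprp1 differed by -3.83 ± 1.31, with both tumours below it (limma, adjusted p = 0.121). Their unadjusted p-values were 0.0230 and 0.0140 (limma). Leaving out LIN28B small intestinal replicate 2, the array of undetected signal, moved Pnliprp1 from -3.83 to -2.10.
Adding LIN28B to the Apcmin allele, in LIN28B/Apcmin over Apcmin tumours, where 5.23% of genes were called, gave 0.69 ± 0.66 for Alox12, -0.06 ± 0.40 for Wfdc18 and 0.35 ± 1.08 for Pnliprp1, with adjusted p from 0.560 to 0.943 (limma). Adding the Apcmin allele to LIN28B, where 1.21% of genes were called, gave 0.40 ± 0.65 for Alox12, -1.24 ± 0.39 for Wfdc18 and 1.76 ± 1.06 for Pnliprp1. The adjusted p of these were 0.824, 0.155 and 0.449 (limma), with age also differing between the groups, 3 against 8 months. The Wfdc18 interval ran from -2.11 to -0.36, and both LIN28B/Apcmin tumours lay below both LIN28B tumours.

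Alox12 acts on arachidonic acid, and among the other genes of that pathway more fell than rose. In Apcmin colon tumours over wt colon, where 15.2% of all genes were called, 6.96% higher and 8.25% lower, 2 of the 26 tested genes of the arachidonate list rose and 5 fell, with a median log2 difference of -0.19 against 0.02 over all genes. The risers were Pla2g12a, a secreted phospholipase that frees fatty acids from membranes, at 1.70 ± 0.31 (limma, adjusted p = 0.00474), and the prostaglandin E synthase Ptges, at 0.90 ± 0.21 (limma, adjusted p = 0.0168). Dpep1, a dipeptidase that converts leukotrienes, fell by 4.83 ± 0.68, and Hpgd, which inactivates prostaglandins, stood at -2.54 ± 0.61. The prostacyclin synthase Ptgis stood at -2.36 ± 0.48 and the leukotriene synthase Ltc4s at -0.93 ± 0.23, and the prostaglandin receptor Ptger3 was at least 1.48-fold lower.
These lesser calls rest on few arrays. Leaving out any of the 4 arrays of these groups ended the calls of Hpgd, Ltc4s and Ptger3, with adjusted p up to 0.134, 0.167 and 0.157. For Ptges and Ptgis, any but Apcmin replicate 2 did so (up to 0.158 and 0.0910), and for Pla2g12a only Apcmin replicate 1 (0.0528). Dpep1 kept its call each time.
Of the lipoxygenases, Alox15 was not above background in either colon group, Alox5 was detected on 1 of these 4 arrays and differed by -0.44 with an adjusted p of 0.339 (limma), and the prostaglandin synthase Ptgs2 was detected on none of the 14 arrays. Ptgs1 was not analysed here. In LIN28B/Apcmin tumours, colon over small intestine, 9.47% of all genes were called higher and 8.5% lower. Of the 26, 5 rose and 7 fell, with a median of 0.00. Among them Alox15 rose at least 1.52-fold, a call lost with the replicate number as block, with averaged arrays and in the series matrix. Ptges rose by 0.93, while Dpep1, Hpgd and Pla2g12a fell, to differences of -3.30, -2.24 and -1.01. Averaging arrays of 1 title number ended the calls of Ptges and Pla2g12a (adjusted p = 0.0983 and 0.155, limma), and the replicate number as block that of Pla2g12a (0.0530). Pla2g12a also lost its call without any 1 of 6 arrays (those of wt and Apcmin colon, LIN28B/Apcmin colon replicate 3 and LIN28B/Apcmin small intestinal replicate 2, with adjusted p up to 0.177), and Hpgd without LIN28B/Apcmin small intestinal replicate 1.

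**Figure D3:**
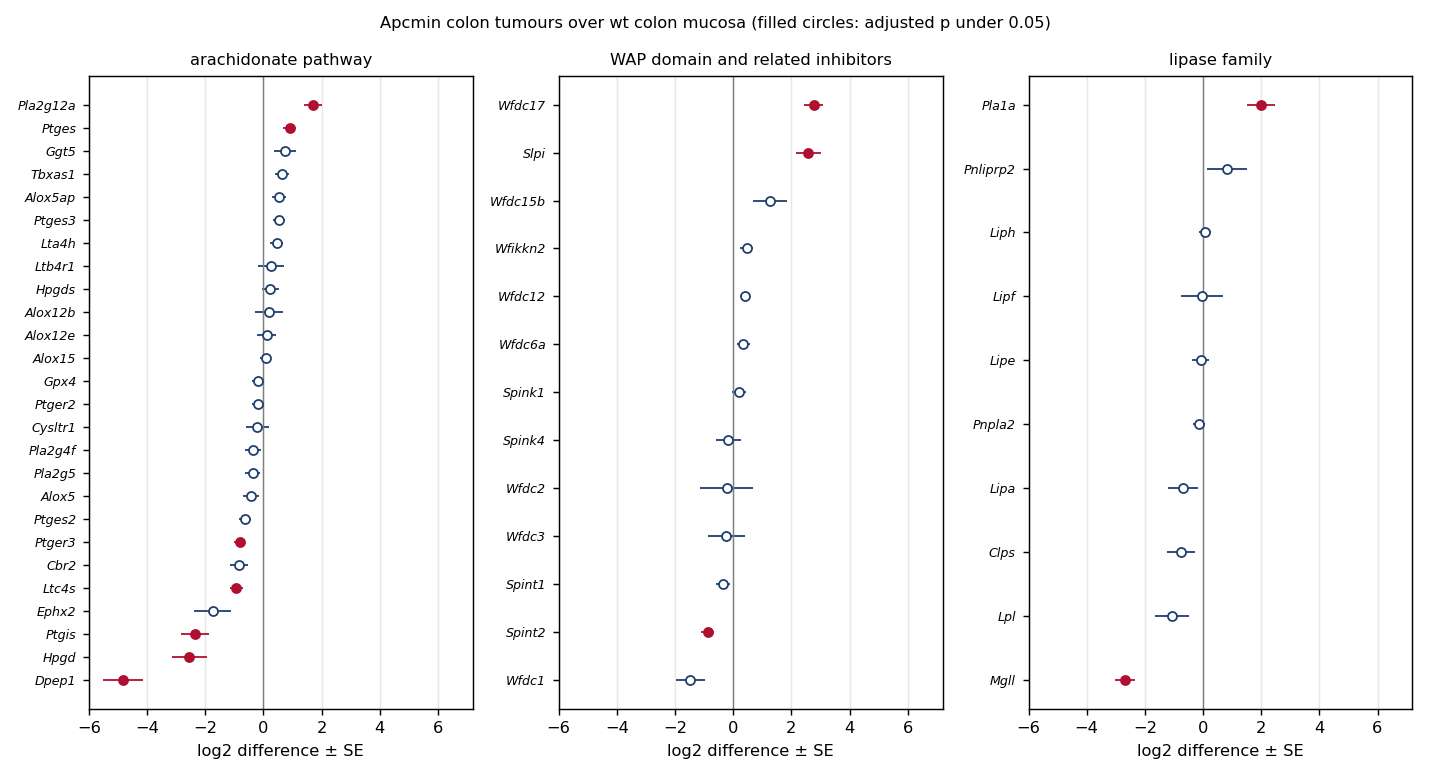
Log2 difference with its SE of each tested gene of 3 lists, the arachidonate pathway (26 genes), WAP domain and related protease inhibitors (13) and the lipase family (10), in Apcmin colon tumours over wt colon mucosa. Filled circles have an adjusted p under 0.05: they number 7, 3 and 2, from Dpep1 at -4.83 to Wfdc17 at 2.76.

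Beside Wfdc18, 2 other WAP domain genes rose in the colon tumours. Of the 13 tested genes of WAP domain and related protease inhibitors, 2 rose and 1 fell in Apcmin colon tumours over wt colon, with a median of 0.20. Over all genes, 6.96% were called higher and 8.25% lower. Wfdc17, a relative of Wfdc18 expressed by macrophages, gave signals of 152 and 93.6 in wt colon, 710.8 and 480.1 in Apcmin and 654.2, 701.6 and 456 in LIN28B/Apcmin colon tumours. It rose by 2.76 ± 0.33 in Apcmin tumours (limma, adjusted p = 0.000444). By signal, its groups of colon tumours overlapped each other and lay above all other arrays. On the normalised log2 scale these groups did not overlap, at 8.97 and 8.56 in Apcmin and 9.04, 9.61 and 9.24 in LIN28B/Apcmin colon tumours.
Slpi, a secreted inhibitor of leukocyte proteases, gave 607.9 and 748.9 in wt colon, 3567.5 and 3812.4 in Apcmin and 1506.5, 1820.5 and 1875.4 in LIN28B/Apcmin colon tumours. It rose by 2.58 ± 0.43 in Apcmin tumours (limma, adjusted p = 0.00268). In LIN28B small intestinal tumours Slpi gave 1453.5 and 1424.5, against 777 in wt mucosa. Those values, like the ones of Wfdc18, were the highest in the small intestine.
Spint2, an inhibitor of membrane proteases, fell by 0.87 ± 0.23 in Apcmin colon tumours (limma, adjusted p = 0.0261), a call that ended without any 1 of the 4 arrays, with adjusted p up to 0.166. Wfdc2 differed by -0.22 ± 0.92 (limma, adjusted p = 0.921). In LIN28B/Apcmin tumours, colon over small intestine, 3 of the 13 rose and 2 fell, against 9.47% of all genes called higher and 8.5% lower. Wfdc17 stood at 4.17 ± 0.29 (limma, adjusted p = 8.14e-06) and Slpi at 2.80 ± 0.38 (limma, adjusted p = 0.00075). The calls of Wfdc17 and Slpi held in both comparisons when any 1 array was left out.

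**Figure D4:**
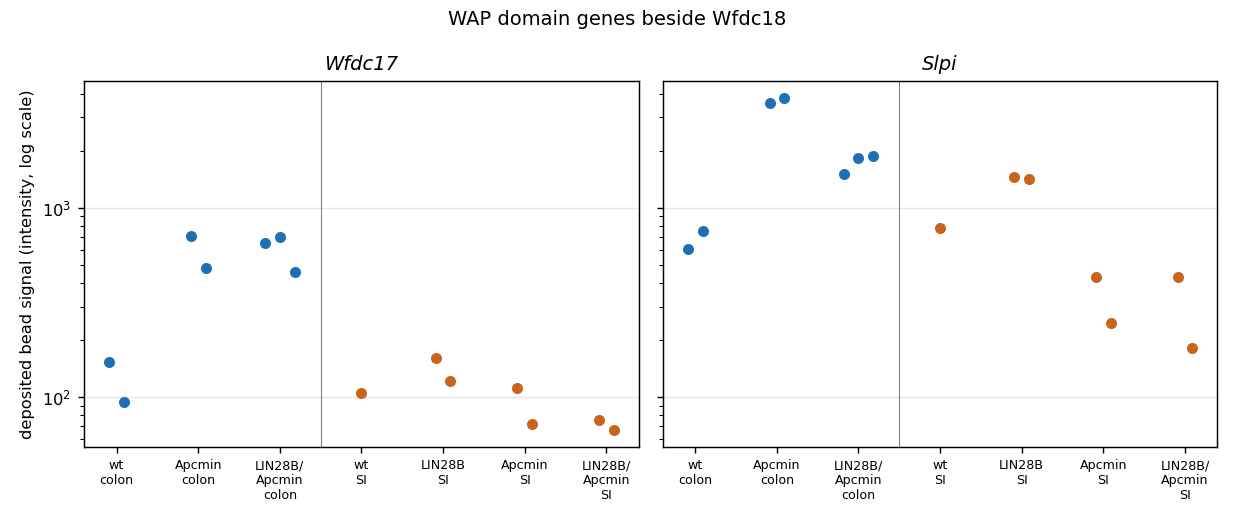
Deposited bead signal (intensity, log axis) of Wfdc17 and Slpi on the 14 arrays, 1 point per array, in colon (blue) and small intestinal (SI, orange) groups. Wfdc17 lies between 456 and 710.8 in the 5 colon tumours and at or below 160.3 elsewhere, and Slpi is highest in Apcmin colon tumours, at 3567.5 and 3812.4.

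Myeloid genes also rose in the colon tumours, and their summed levels are set beside the values of these genes. Over all genes, 6.96% were called higher in Apcmin colon tumours over wt colon and 9.47% in LIN28B/Apcmin tumours, colon over small intestine. Of 16 tested neutrophil and myeloid markers, 11 and 13 rose in these comparisons, and 0 fell in either. The sums that follow are of these markers. Their summed level was 2550 to 2852 in wt colon, 9705 to 14747 in Apcmin colon tumours and 16106 to 17498 in LIN28B/Apcmin colon tumours, against 1558 to 1859 in LIN28B/Apcmin small intestinal tumours. LIN28B small intestinal tumours, which had the highest Wfdc18 and Slpi signals in the small intestine, summed to 4239 to 5151, against 2284 in wt mucosa. Alox12 gave 124.1 and 113.6 in those tumours, and Pnliprp1 gave 364.4 and 62.5, the latter not above background. The Wfdc18 signal was 1729.9 in wt small intestine, against 307.4 and 220.6 in wt colon. On the normalised log2 scale, Slpi gave 11.47 and 11.77 in Apcmin colon tumours. In LIN28B/Apcmin colon tumours it gave 10.35, 11.14 and 11.55, which overlapped with them. The neutrophil gene S100a8 rose by 6.39 ± 0.62 in Apcmin colon tumours (limma, adjusted p = 0.00015). The part of these cells in the levels of Alox12, Wfdc18 and Pnliprp1 was not tested.

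Platelets and squamous epithelium are the settings where Alox12 is best known, and both lists were read beside it. In Apcmin colon tumours over wt colon, 6.96% of all genes were called higher and 8.25% lower. For LIN28B/Apcmin tumours, colon over small intestine, these shares were 9.47% and 8.5%. Of 9 platelet and megakaryocyte genes tested, 1 rose in Apcmin colon tumours, the chemokine Ppbp, at least 2.94-fold (limma, adjusted p = 0.00698), a call that ended without wt colon replicate 2 or Apcmin colon replicate 1 (adjusted p up to 0.0661). The platelet chemokine Pf4 differed by 0.14 ± 0.35 (limma, adjusted p = 0.856), and the integrin Itga2b was detected on 5 of the 14 arrays. The list summed to 2607 to 2813 in wt colon, 3235 to 3421 in Apcmin and 3527 to 5094 in LIN28B/Apcmin colon tumours. In LIN28B/Apcmin tumours, colon over small intestine, 2 rose, Pf4 by 1.66 ± 0.31 and Ppbp at least 2.59-fold, and 1 fell. Both rises lost their call when arrays of 1 title number were averaged (adjusted p = 0.113 and 0.0778, limma).
Squamous genes moved more. Of 15 tested, 7 rose and 0 fell in Apcmin colon tumours, among them the keratins Krt14 at 4.82 ± 0.96, Krt17 at 3.18 ± 0.58 and Krt15 at 2.93. Their sum was 1632 to 1789 in wt colon, 6167 to 6621 in Apcmin and 2543 to 2945 in LIN28B/Apcmin colon tumours, and at most 2121 on the small intestinal arrays. The defining basal genes Krt5 and Trp63 were detected on none of the 14 arrays. Krt14 lost its call without wt colon replicate 2 or Apcmin colon replicate 2, and Krt17 without replicate 1 of either group (adjusted p up to 0.0599 and 0.0561). In LIN28B/Apcmin tumours, colon over small intestine, 3 of the 15 rose and 1 fell, Krt14 by 3.42 ± 0.85 and Krt17 by 3.91 ± 0.52. Krt14 lost that call without LIN28B/Apcmin small intestinal replicate 2 (adjusted p = 0.129, limma) and with arrays of 1 title number averaged (0.174). The part of squamous cells in the level of Alox12 was not tested.

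The lipase family was read beside Pnliprp1. Of 10 tested genes of this family, Pnliprp1 left out, 1 rose and 1 fell in Apcmin colon tumours over wt colon, where 15.2% of all genes were called, and the median was -0.11. The phospholipase Pla1a rose by 2.00 ± 0.47 (limma, adjusted p = 0.0170), a call that ended without any 1 of the 4 arrays (adjusted p up to 0.137). The monoglyceride lipase Mgll fell by 2.69 ± 0.34 (limma, adjusted p = 0.000718) and kept its call each time. Pnliprp2, the nearest relative in the list, differed by 0.82 ± 0.68, the lipase cofactor colipase (Clps) by -0.76 ± 0.49, and the lipoprotein lipase Lpl by -1.08 ± 0.58, with adjusted p of 0.483, 0.349 and 0.250 (limma). Pnlip, the pancreatic lipase itself, was not analysed here.
In LIN28B/Apcmin tumours, colon over small intestine, 9.47% of all genes were called higher and 8.5% lower. Of the 10, 1 rose, Lpl at 2.45, and 2 fell, among them Clps at -1.53. Clps lost that call without any 1 of 9 arrays (those of wt colon, Apcmin colon and LIN28B small intestine, LIN28B/Apcmin colon replicates 2 and 3 and LIN28B/Apcmin small intestinal replicate 2), and Lpl without LIN28B/Apcmin small intestinal replicate 2 (adjusted p up to 0.198 and 0.0698). Both also lost it with arrays of 1 title number averaged (0.149 and 0.0949).

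Genes of the exocrine pancreas, which lies against the duodenum, were present on the wt small intestinal array. Cpa1, Cpb1 and Prss2, which encode digestive proteases of acinar cells, were each detected on this array alone of 14, with signals of 383.3, 603.4 and 140. Ptf1a, the transcription factor of acinar cells, was detected on none. Pnliprp2 and Clps were at their highest there too, at 9910.2 and 12896.3, as was the chymotrypsinogen Ctrb1, at 344.4.
Of 11 tested pancreas genes, 2 fell and 0 rose in Apcmin small intestinal tumours over wt mucosa, against 0.089% of all genes called in either direction. They were Ctrb1 at -3.45 ± 0.23 and Ctrl, another chymotrypsin-like protease, at -3.22 ± 0.31. In LIN28B tumours over wt mucosa 5 fell, against 2.22% of all genes, and 0 rose, among them Pnliprp2 at -6.39 ± 0.83 and Clps at -4.12 ± 0.60. The list summed to 37275 on the wt array, 21175 to 26616 in Apcmin, 7529 to 10585 in LIN28B and 12375 to 16023 in LIN28B/Apcmin small intestinal tumours. Pnliprp1 was likewise highest on the wt array among small intestinal samples, and the part of pancreatic tissue in that value was not tested.
In the colon the picture differed. Cpa1, Cpb1 and Prss2 were not detected on any of the 7 colon arrays, and the sum of the list was 25916 to 28148 in wt colon, 18886 to 22446 in Apcmin and 8871 to 10389 in LIN28B/Apcmin colon tumours. The zymogen granule gene Sycn, part of that sum, gave 14688.8 and 10102.5 in wt colon, against 368.1 in wt small intestine. The sums were thus not read as amounts of pancreatic tissue. In Apcmin colon tumours over wt colon, where 6.96% of all genes were called higher and 8.25% lower, 1 of the 11 rose and 1 fell. The ribonuclease Rnase1 rose by 4.56 ± 0.46, and Sycn stood at -2.73 ± 0.49.

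**Figure D5:**
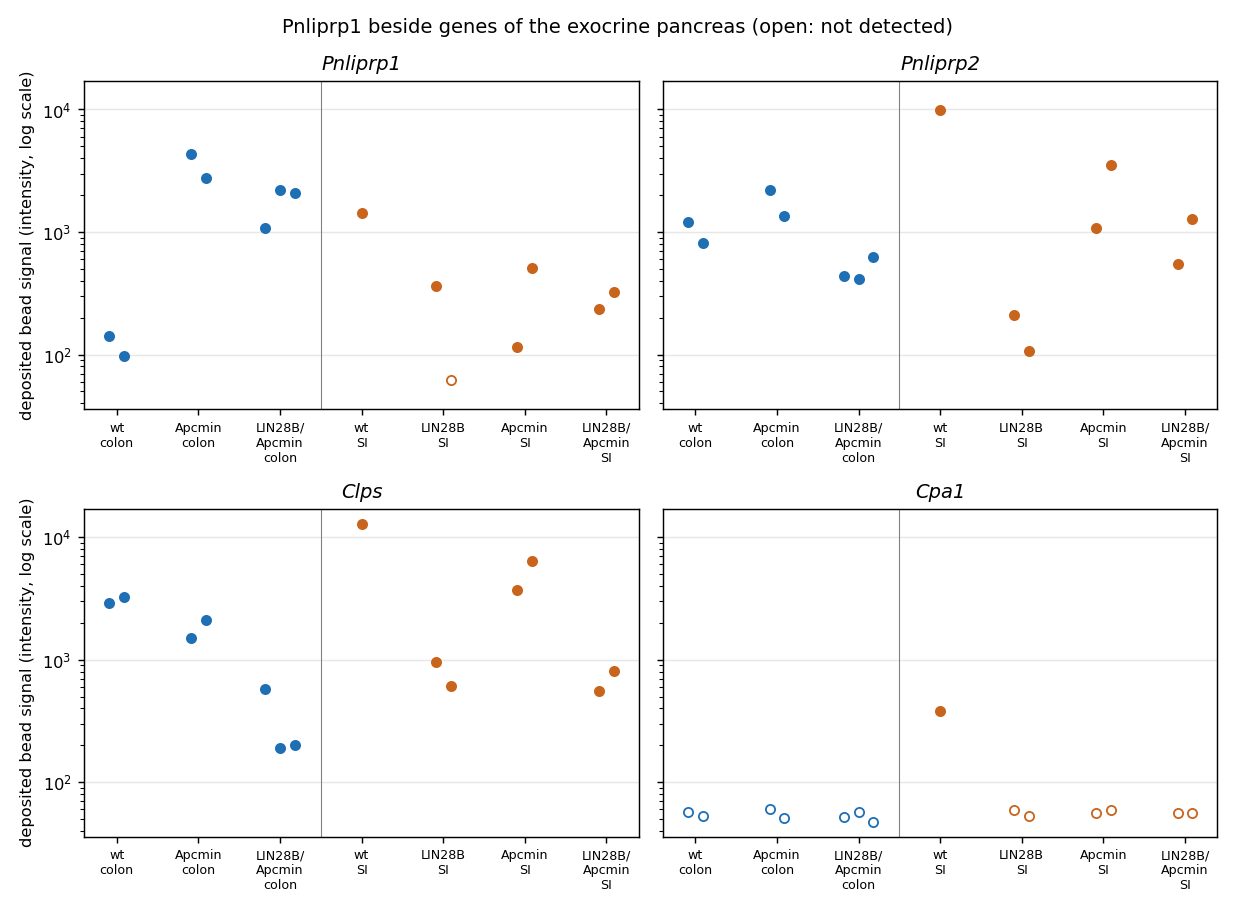
Deposited bead signal (intensity, log axis) of Pnliprp1, Pnliprp2, Clps and Cpa1 on the 14 arrays, 1 point per array, in colon (blue) and small intestinal (SI, orange) groups, with open points where the probe was not detected. Cpa1 is detected on the wt small intestinal array alone, at 383.3, whereas Pnliprp1 is highest in Apcmin colon tumours, at 4294.3 and 2747.9.

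Other cell type lists also moved between the choosing groups, where 6.96% of all genes were called higher and 8.25% lower. Of 13 smooth muscle genes, 11 fell in Apcmin colon tumours over wt colon and 0 rose, with desmin (Des) at -3.58 ± 0.48. Of 20 Wnt target genes, 11 rose and 1 fell, of 7 Paneth cell genes 5 rose, of 11 goblet cell genes 4 fell, and of 10 colonocyte genes 8 fell. Of 3 red blood cell genes, 2 rose, the globin Hba-a1 by 3.29 ± 0.58 and the haem synthesis enzyme Alas2 by 2.28 ± 0.65, a call that ended without any 1 of the 4 arrays (adjusted p up to 0.221). These 3 genes summed to 469 to 1433 in wt colon, 6397 to 9195 in Apcmin and 10484 to 21794 in LIN28B/Apcmin colon tumours, and to 1145 to 8411 on the small intestinal arrays. In LIN28B/Apcmin tumours, colon over small intestine, 18% of all genes were called, 9.47% higher and 8.5% lower. Of these lists, 0 of 13 smooth muscle genes and 0 of 3 red blood cell genes were called. For Wnt targets 8 of 20 genes were called and for Paneth cells 1 of 7, all higher. Goblet cell genes had 2 of 11 called and colonocyte genes 3 of 10, all lower. Their part in the levels of the 3 genes was not tested.

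The genes most like each of the 3 over the 14 arrays were found by Pearson correlation of normalised log2 values, a description over arrays that share groups and title numbers. For Alox12 they were Ilkap, Ephb6 and Gpr182, each at 0.96, and Ppm1m and Mt4, each at 0.95. Ephb6 encodes a receptor of the ephrin family and Mt4 a metallothionein. Over the 10 arrays outside the choosing groups, the same 5 stood between 0.93 and 0.99.
For Wfdc18 they were Col18a1 at 0.93, Mmp10 and Crem at 0.92, and Napepld and Vmp1 at 0.91, which fell to between 0.77 and 0.90 over those 10 arrays. Col18a1 encodes a basement membrane collagen and Mmp10 a matrix metalloprotease. For Pnliprp1 they were Tbcel at 0.91, Sbk1 and Pcdhb4 at 0.88, Slc6a13 at 0.84 and the Wnt ligand Wnt6 at 0.83, and between 0.73 and 0.89 over the 10.
No gene was on the list of more than 1 of the 3. Among themselves, Alox12 correlated at 0.80 with Pnliprp1 and at 0.78 with Wfdc18, and Pnliprp1 at 0.71 with Wfdc18, over 14 arrays that include those by which they were chosen. Over the 10 others the values were 0.68, 0.85 and 0.50.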

How the data were processed

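Expression was measured on Illumina bead arrays, 1 for each of 16 samples. The deposited intensity values, per the file headers, are average bead signals by probe, neither background subtracted nor normalised by the authors, with a deposited detection p-value for each made by the authors. Scanner software and probe sequences are not given in the sources used here. Of 25697 probes, 23978 named 1 gene. Samples were grouped by the labels.

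Arrays with under 20% of probes detected (2) were left out, and signals under 25 set missing. Background was corrected by normexp (limma nec, offset 16), then log2 and quantile normalisation were applied. For each gene the brightest probe was kept, if detected (p under 0.05) on 2 or more arrays, which gave 11230 genes. Means of 7 groups were fitted in limma (lmFit, eBayes), treating the number in the title as a random block, with a consensus correlation of -0.0643. The correlation is negative, so samples that share a number count as slightly less alike, and the SE of such a group is slightly smaller. For Alox12, the SE was 0.801 in LIN28B and 0.809 in Apcmin small intestinal tumours over wt. Some numbers cover whole groups, and the block cannot correct for an animal shared by a whole group. The p-values thus measure spread between these samples, which may share an animal and be technical. That spread was estimated for each gene over all groups together, the choosing colon groups included. The wt small intestinal group has no replicate and adds nothing to this estimate. The SE and p-values of comparisons with it thus rest on the spread within the other groups. Replicate numbers did not pair samples. Tests were two-sided, adjusted by Benjamini-Hochberg over all genes, at 0.05. Only the model fit was run on simulated data, drawn independently for each array. Background correction, normalisation, filtering and shared animals were not covered. The number of arrays limits the precision. "At least" folds are lower bounds, taken where a group was not above background.

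The genes and all lists were chosen with earlier results of these data known. Named list genes were those called in Apcmin colon over wt colon, up to 8 per list, with fixed relatives and defining markers, and the 5 genes most like each of the 3. Genes named in other comparisons, such as Ctrl, were chosen after their values were seen. Alternatives changed the arrays, background, offset, scaling, filter, block and averaging, or used the series matrix, the authors' intensity values of unstated scaling. Names and promoters came from GEO's platform annotation and RefSeq (GRCm38.p6). The tools were limma 3.58.1 and data.table (version 1.17.8) in R 4.3.3, and matplotlib 3.10.9 and pandas 2.3.3 under Python 3.11.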

Additional observations from a re-analysis of the deposited data

Results flagged for a closer look

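Pnliprp1 differed from the wt mucosa of the same organ in opposite directions in colon and small intestinal tumours. Both Apcmin colon tumours lay above wt colon, by a mean log2 difference of 5.51, and both Apcmin small intestinal tumours below wt mucosa, at -2.42. All 3 LIN28B/Apcmin colon tumours lay above wt colon, by 5.0005, and both LIN28B/Apcmin small intestinal tumours below wt mucosa, at -2.08 between group means. The value of -2.42 did not pass its own test (limma, adjusted p = 1.00). Whether the organs differ was not tested, since the colon contrast chose the gene, and both small intestinal values rest on 1 wt array, the one with the highest signals of Cpa1, Cpb1 and Prss2.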

How the results depend on the processing

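The number of arrays and the signal over background limit the precision. With all 16 arrays and signals under 25 kept, choices changed together, calls fell to 0 in the small intestine for Apcmin tumours over wt (from 10), LIN28B/Apcmin over Apcmin (587), LIN28B over wt (419) and LIN28B/Apcmin over LIN28B (136), and in the colon for Apcmin over wt (1708) and LIN28B/Apcmin over Apcmin (187). They fell to 11 for LIN28B/Apcmin tumours, colon over small intestine (2017), where Alox12 was 1.78 (limma, adjusted p = 0.623) and Wfdc18 0.44 (0.918), and to 12 for LIN28B/Apcmin colon tumours over wt (3378). Signs turned there for Alox12 in Apcmin (-2.64) and LIN28B (-2.39) small intestinal tumours over wt and for Pnliprp1 in Apcmin ones (0.42). Of the 45 values of other named genes, 44 lost their call in that fit. With low signals kept on the 14 arrays alone, 1 of the 45 did.

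On the 14 arrays, the calls of Alox12 and Wfdc18 in LIN28B/Apcmin tumours, colon over small intestine, held under the other 9 settings. Pnliprp1 passed there without background correction (2.63, adjusted p = 0.0391) and in the series matrix (2.41, 0.0296), limma. In Apcmin colon tumours over wt, the pair that chose the 3 genes, the settings are a description only and no check of the rise. The difference ran from 4.57 to 5.98 for Alox12, 4.89 to 5.75 for Wfdc18 and 4.51 to 5.77 for Pnliprp1. Calls moved to 28 for Apcmin tumours over wt in the small intestine with no detection filter, and to 333 for LIN28B/Apcmin over Apcmin there with signals under 25 kept. Averaging arrays of 1 title number, which leaves fewer samples, gave 254 for that comparison, 99 for LIN28B over wt, 18 for LIN28B/Apcmin over LIN28B and 650 for colon over small intestine, and in the colon 27 for LIN28B/Apcmin over Apcmin and 1485 over wt. Median scaling gave 783 for LIN28B over wt, with 63.1% higher in place of 40.6%, and 393 for LIN28B/Apcmin over LIN28B, with 22.4% in place of 51.5%, and it moved the median of all genes to 0.18 and -0.11 there. It also lowered the share of higher calls from 42.8% to 27.6% for LIN28B/Apcmin over Apcmin and from 49.5% to 39.2% over wt in the colon. The cause was not tested.

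With the replicate number as a block in place of the title number, LIN28B/Apcmin over Apcmin gave 1040 calls in the small intestine and 103 in the colon, LIN28B over wt gave 750, and Wfdc18 in Apcmin small intestinal tumours over wt turned to -0.065. The deviations of same-numbered samples correlated at -0.034 to 0.356 over 30 pairs, with a median of 0.049, so the numbers were not taken to pair samples. Of the named genes' 45 values, 42 kept their call under this block, and 36 when arrays of 1 title number were averaged.

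Leaving out 1 array at a time, calls ran from 7 to 91 for Apcmin over wt, 52 to 1542 for LIN28B/Apcmin over Apcmin, 80 to 1197 for LIN28B over wt and 21 to 802 for LIN28B/Apcmin over LIN28B in the small intestine. They ran from 1331 to 2758 for colon over small intestine, and in the colon from 573 to 2162 for Apcmin over wt, 5 to 479 for LIN28B/Apcmin over Apcmin and 1331 to 4060 over wt. In the small intestine, Wfdc18 ran from -0.045 to 0.29 in Apcmin over wt, -0.79 to 0.65 in LIN28B/Apcmin over Apcmin, 0.95 to 1.62 in LIN28B over wt and -1.96 to -0.51 in LIN28B/Apcmin over LIN28B. Pnliprp1 ran from -1.09 to 1.79 in LIN28B/Apcmin over Apcmin, -5.57 to -2.10 in LIN28B over wt, and 2.32 to 3.38 in colon over small intestine. Wfdc18 passed the test in LIN28B over wt without either LIN28B/Apcmin small intestinal array (adjusted p = 0.0357 and 0.0366, limma) and in LIN28B/Apcmin over LIN28B without LIN28B/Apcmin replicate 1 (0.0090). Pnliprp1 passed in LIN28B over wt without LIN28B replicate 1 (0.0360) or either Apcmin array (0.0389 and 0.0391). With wt small intestinal replicate 2 left out, the readable arrays give no wt small intestinal value.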
